A study of Homo sapiens with 9 samples.

Results

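The SLC25 genes encode the mitochondrial carriers, a family of membrane proteins that move nucleotides, phosphate, carboxylates, amino acids, cofactors and protons across the inner mitochondrial membrane. The genes analysed were all protein-coding genes whose symbol is SLC25A followed by a number, found through their Ensembl identifiers. Of 48 such genes in the GENCODE release 44 annotation, 45 had values among the 22290 genes of the expression table, and SLC25A2, SLC25A30 and SLC25A51 were not analysed here. Most carriers are antiporters that swap a matrix substrate for a cytosolic one, so the family sets which metabolites the matrix shares with the cytosol. The ADP/ATP translocases and the phosphate carrier serve ATP synthesis, while the carriers of citrate, aspartate and glutamate tie the citric acid cycle to lipid and nucleotide synthesis, a link that tumour cells draw on. The carriers are encoded in the nucleus, made in the cytosol and for the most part inserted into the inner membrane by the TIM22 complex.

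RNA sequencing was performed on cells labelled IMR-32, an established human neuroblastoma line, to compare metabolism between cells with altered amounts of TRAP1, a mitochondrial chaperone of the HSP90 family. There were 9 libraries in 3 groups of 3: parental cells, cells labelled KD for knockdown of TRAP1, and cells labelled OE for its overexpression. The altered lines had been developed earlier; whether each is 1 clone, and whether the parental cells carry a control vector, is not given in the sources used here. RNA was isolated in triplicate per the authors, but neither they nor the labels say that replicates were separate cultures, so p-values measure only the spread between these libraries, which may be technical. The values are taken as rlog values, from the name of the deposited table and the look of its numbers, without raw counts. These are log2 normalised counts with the differences of weakly counted genes pulled towards 0. A difference of rlog therefore understates the log2 fold change, most of all for low genes. The authors give a coverage of 40000000 reads, without stating whether this is per library. Summed over genes, 2 to the power of the rlog was 34928732 to 35211774 per library, on a normalised scale that does not give each library's own reads. The root mean square difference between libraries was 0.0582 to 0.0630 log2 units within groups and 0.137 to 0.255 between groups, and no library stood apart from its group.

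TRAP1 itself went against the labels, although its value is uncertain, since other genes overlap 28.5% of its exon sequence. Its rlog values were 10.67, 10.66 and 10.65 in the parental libraries, 10.79, 10.79 and 10.83 in the libraries labelled KD, and 10.67, 10.63 and 10.74 in those labelled OE. The libraries labelled KD were all above the parental ones, and the libraries labelled OE lay on both sides of them. The difference from parental was 0.14 for KD (95% interval 0.09 to 0.19, adjusted p = 1.8e-05) and 0.02 for OE (-0.03 to 0.07, adjusted p = 0.64), so every direction below is that of libraries labelled KD or OE. With the median of each 20-Mb chromosomal block removed, the OE difference was 0.06 (adjusted p = 0.035). Between OE and KD the difference was -0.12 (adjusted p = 1.5e-04), and -0.06 (adjusted p = 0.024) after block removal.

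The labelled cell type was checked against marker genes. Of 12 neuroblastoma markers 9 had values. ISL1 was the most abundant of them (rlog 9.36 to 9.38 in parental libraries), whereas MYCN (2.52 on average in parental libraries), TH (2.84) and PHOX2A (1.33) were near the bottom of the table, and GATA3 (7.25), NCAM1 (6.38), HAND2 (6.36), CHGB (5.87) and CHGA (4.07) lay between. The summed level of the 9 was 1054 to 1080 in parental, 1111 to 1143 in KD and 994 to 1039 in OE libraries, and NCAM1 differed most, by 1.39 in KD and -0.45 in OE. Mesenchymal markers were mixed. All 8 had values, and their summed level (2 to the power of the rlog) was 73340 to 73616 in parental, 85658 to 86378 in KD and 88180 to 89556 in OE libraries. In parental cells VIM made up 73.5% of that sum, FN1 21.9% and PRRX1 4.53%, while LUM (4.92), COL1A1 (4.21), DCN (3.02), COL1A2 (1.35) and COL3A1 (1.16) were low. Of 7 epithelial markers 5 had values, summing to 5773 to 5829 in parental, 5862 to 6106 in KD and 5266 to 5328 in OE libraries, mostly KRT18. PTPRC, the marker with values among 4 for blood, stayed at 2.60 to 2.68. In KD 2 neuroblastoma markers were higher and 4 lower, as were 2 and 2 mesenchymal and 1 and 0 epithelial ones; in OE the counts were 0 and 3, 4 and 0, and 1 and 2. Of all genes 26.9% were higher and 26.9% lower in KD, and 16.9% and 18.0% in OE. Thus 3 of the 9 markers of the labelled cell type were near absent. The authors state that the line was authenticated, and its identity was not tested further here. The part of these markers in the carrier results was not tested. In bulk RNA, fewer cells of a kind and less RNA per cell cannot be told apart.

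Against parental cells, 29 of 45 carriers passed an adjusted p of 0.05 in the libraries labelled KD, where 53.7% of all genes did. Only 6 carriers were higher, against a background of 26.9% of all genes, and 23 were lower, again against 26.9%. The median carrier difference was -0.053, and that of all genes was -0.00051. Counting only the 35 carriers whose mean rlog reached 8, 26 were called, a share of 74.3% beside 75.8% of all genes at that level. The median there was -0.076, and -0.0070 for all such genes. Of these 35, 20 were lower (57.1% beside 39.4% of such genes) and 6 higher (17.1% beside 36.4%), so carriers were called about as often as other genes of their level, with more calls on the lower side. Most differences were small on the rlog scale: 1 carrier was called with a size over 0.5, beside 4.98% of all genes. The study set 0.5 on log2 fold changes, with a p under 0.05. This count, of shrunken rlog differences with an adjusted p, is not at the study's own threshold.

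In the libraries labelled OE, 18 carriers were called against parental, beside 34.8% of all genes. Of these, 8 were higher (background 16.9%) and 10 lower (background 18.0%). The median difference was -0.0077, and 0.00039 for all genes. All 18 were among the 35 well expressed carriers, a share of 51.4% beside 56.7% of all genes at that level. None passed a difference of 0.5 by limma (21 had an unadjusted p under 0.05 at any size), beside 0.897% of all genes. Directly compared, the libraries labelled OE differed from those labelled KD in 25 carriers, where 47.3% of all genes did. There, the median was 0.030 (0.00078 for all genes), 17 were higher in OE (background 23.5%) and 8 lower (23.8%), 22 of the 35 well expressed carriers were called (68.3% of all such genes), and 3 passed 0.5 (3.56%). Since KD and OE were both set against the same 3 parental libraries, their values are given side by side, and no likeness between them is read from it. The libraries of the 2 groups compared did not overlap in 28 carriers for KD against parental, 18 for OE against parental and 28 for OE against KD. Of all genes 59.2%, 43.2% and 54.1% did not, so a lack of overlap, given below for single carriers, is common here.

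Called in both comparisons with parental were 4 carriers that were higher in both (SLC25A1, SLC25A36, SLC25A40 and SLC25A43), 7 that were lower in both (SLC25A4, SLC25A25, SLC25A33 and SLC25A45 among them), 3 that were lower in KD and higher in OE (SLC25A3, SLC25A23 and SLC25A26), and SLC25A29, which was higher in KD and lower in OE. Another 13 were lower in KD with no call in OE, and SLC25A6 was higher in KD alone. In 13 carriers neither comparison was called. Of all genes 11% were higher in both, 12.4% lower in both, 2.07% lower in KD and higher in OE, 2.17% the reverse, 12.4% lower in KD alone, 13.7% higher in KD alone, and 39.1% called in neither; the shared parental libraries bear on all these shares.

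**Figure D1:**
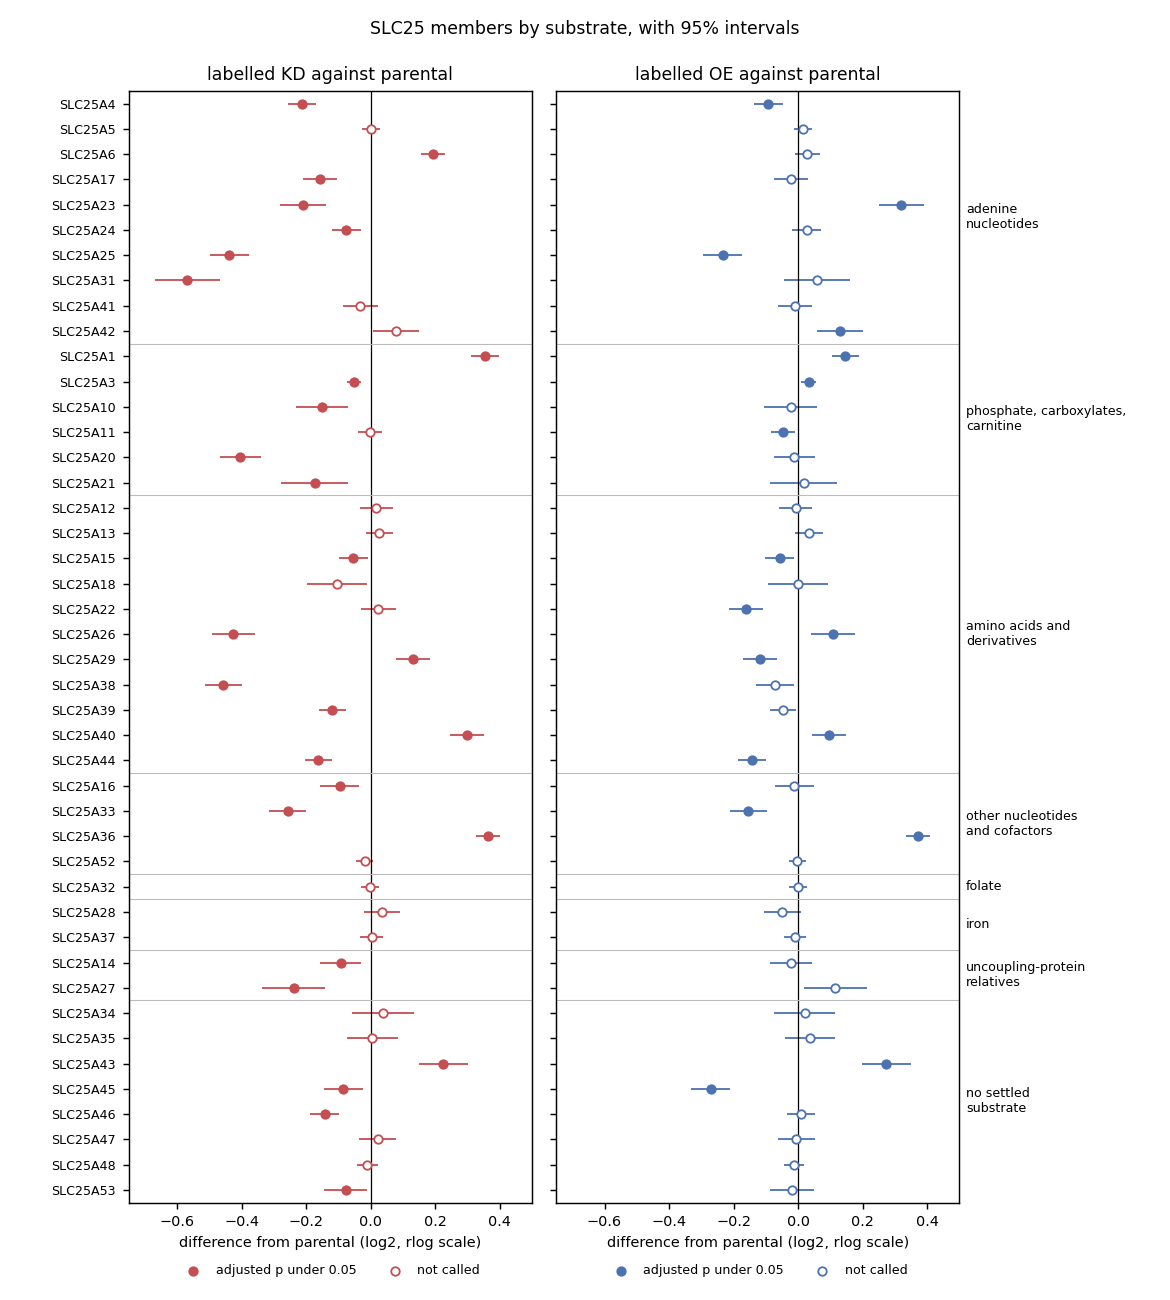
Difference of SLC25 carriers from parental (x axis, log2 on the rlog scale) in the libraries labelled KD (left) and OE (right), n = 3 per group, ordered by substrate. Points are estimates, bars are 95% intervals and filled points have an adjusted p under 0.05; the lowest is SLC25A31 in KD at -0.57 and the highest SLC25A36 in OE at 0.37.

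Levels of different genes were compared per kilobase of exon, as 2 to the power of the mean rlog. SLC25A5 was highest in parental cells at 11265 per kb, followed by SLC25A6 at 4070, SLC25A3 at 2560, SLC25A11, the oxoglutarate and malate carrier, at 1441 and SLC25A39 at 987. The same 5 led when the longest transcript gave the length (13402, 4356, 3742, 1637 and 1569). By the length of the coding sequence alone, SLC25A3 (20972) stood above SLC25A5 (19593) and SLC25A6 (7070), so the order of the leading genes depends on the length used. The 35 carriers with a mean rlog of at least 8 had a median of 294 per kb in parental, 289 in KD and 300 in OE libraries. At the bottom, 5 carriers had a mean rlog under 4: SLC25A41, SLC25A47, SLC25A48, SLC25A52 and SLC25A32. None of these 5 was called in any comparison of the main fit. Block removal subtracts the same value from every gene of a block, these included, and the calls gained with it are given below. The other 5 carriers below a mean of 8 were SLC25A18, SLC25A21, SLC25A27, SLC25A31 and SLC25A34.

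**Figure D2:**
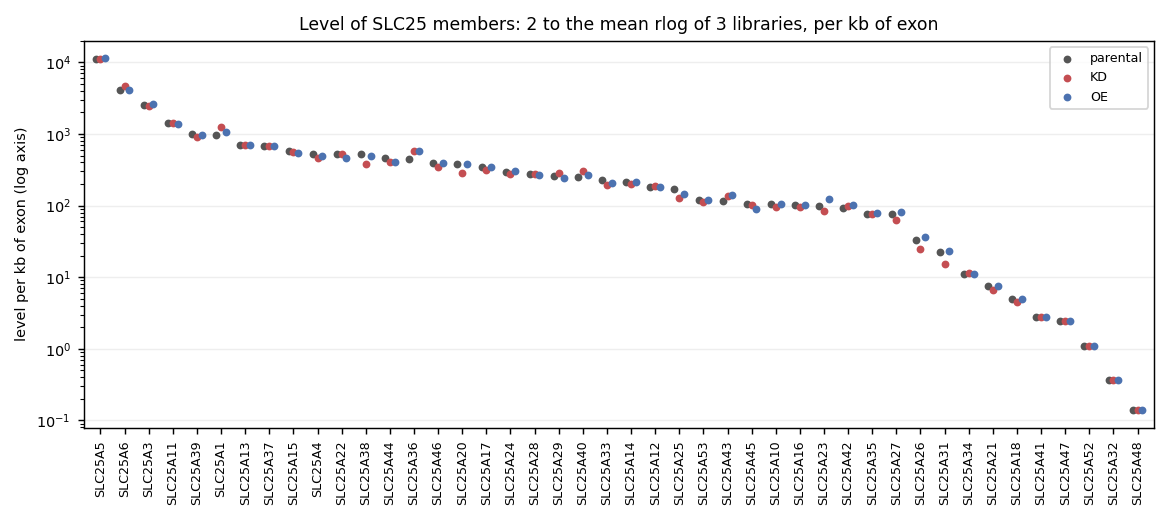
Level of the carriers per kb of exon (log axis), as 2 to the power of the mean rlog of the 3 libraries of each group, in order of the parental level. SLC25A5 leads at 11265 per kb in parental cells. The groups differ little at each gene compared with the full range of levels, but not always compared with the distance to the next gene. SLC25A36 is at 446 per kb in parental and 573 in KD libraries, whereas SLC25A38 is at 518 and 377.

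Adenine nucleotide transport held 10 carriers. In the libraries labelled KD 6 were lower, 1 was higher and 3 were not called, with a median difference of -0.12, beside 26.9% of all genes lower and 26.9% higher. In those labelled OE 2 were lower and 2 higher, with a median of 0.02, beside 18.0% and 16.9% of all genes.

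The ADP/ATP translocases bring ADP into the matrix and release ATP. SLC25A5, the isoform of dividing cells, had rlog values of 14.11, 14.11 and 14.07 in parental, 14.11, 14.10 and 14.09 in KD and 14.12, 14.09 and 14.13 in OE libraries. All 9 libraries overlapped, and neither difference (0.0013 for KD, interval -0.03 to 0.03, and 0.02 for OE, interval -0.01 to 0.04) was called. With 20-Mb block medians removed these became -0.07 (adjusted p = 1.4e-05) and -0.09 (adjusted p = 2.5e-07). Neighbouring genes within 10 Mb on chromosome X had medians of 0.02 and 0.05. The sign turned through the subtraction of the block medians, and why those differed between groups was not tested.

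SLC25A6, on the part of chromosome X that pairs with Y, had values of 12.62, 12.60 and 12.66 in parental, 12.78, 12.83 and 12.84 in KD and 12.63, 12.64 and 12.69 in OE libraries. The libraries labelled KD were above all 6 others, by 0.19 against parental (interval 0.15 to 0.23, adjusted p = 1.6e-10). SLC25A4, the isoform of heart and muscle, gave 11.30, 11.35 and 11.30 in parental, 11.07, 11.12 and 11.11 in KD and 11.23, 11.21 and 11.23 in OE libraries. The 3 groups did not overlap: KD was lowest (-0.21, adjusted p = 3.6e-10), OE lay between (-0.09, adjusted p = 8.9e-04) and parental was highest.

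SLC25A31 is the translocase of the testis, and lies at chr4:127730400-127774292 on the plus strand of GRCh38. It was weakly expressed, with 22.5 per kb in parental cells. Its values were 5.27, 5.31 and 5.45 in parental, 4.78, 4.74 and 4.81 in KD and 5.40, 5.35 and 5.47 in OE libraries. The libraries labelled KD lay clearly below the other 6, while parental and OE overlapped. The KD difference of -0.57 (interval -0.67 to -0.47, adjusted p = 1.4e-11) and the OE against KD difference of 0.63 (adjusted p = 2.0e-12) were the largest of any carrier. The genes within 10 Mb had a median KD difference of 0.09, of the opposite sign.

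As a share of the 4 translocases together, per kb of exon, SLC25A5 made up 71.2%, 71.4% and 70.1% in parental, 69.4%, 68.5% and 68.3% in KD and 71.4%, 70.8% and 70.6% in OE libraries. SLC25A6 held 25.6% on average in parental, 28.4% in KD and 25.8% in OE libraries. SLC25A4 held 3.33%, 2.78% and 3.09%, or 9.64%, 8.15% and 8.99% when coding length was used, and SLC25A31 0.142%, 0.0924% and 0.146%. Per kb of exon the shares of SLC25A5 and SLC25A4 were thus smaller and that of SLC25A6 larger in KD, with no overlap with parental; by coding length the SLC25A5 shares of KD and parental overlapped. The level of SLC25A5 itself was 11265 per kb in parental and 11275 in KD, while that of SLC25A6 was 4070 and 4654, so the SLC25A5 share was smaller with no call for SLC25A5 itself. SLC25A5 has 9 annotated pseudogenes and SLC25A6 has 6; reads that fit several copies may have been dropped or split, so these levels are uncertain.

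The ATP-Mg/phosphate carriers exchange adenine nucleotides for phosphate to set the size of the matrix nucleotide pool, and SLC25A23, SLC25A24 and SLC25A25 bind calcium. SLC25A23 had values of 8.92, 8.96 and 8.81 in parental, 8.68, 8.70 and 8.68 in KD and 9.19, 9.22 and 9.24 in OE libraries. The groups did not overlap, with KD lowest and OE highest. The difference was -0.21 for KD (interval -0.28 to -0.14, adjusted p = 4.3e-06), 0.32 for OE (0.25 to 0.39, adjusted p = 4.9e-09) and 0.53 between OE and KD (adjusted p = 1.7e-14). Genes within 10 Mb on chromosome 19 had medians of -0.01, -0.05 and -0.03 in the same order, and the spread of these neighbours was not examined.

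SLC25A25 showed 9.95, 9.99 and 10 in parental, 9.51, 9.56 and 9.56 in KD and 9.72, 9.81 and 9.72 in OE libraries. Here parental was highest, OE in the middle and KD lowest, with no overlap. The differences were -0.44 for KD (adjusted p = 2.8e-14) and -0.23 for OE (adjusted p = 1.1e-07). The 163 genes within 10 Mb on chromosome 9 were lower as well, with medians of -0.35 and -0.10, and the differences after block removal were -0.09 (adjusted p = 0.011) and -0.13 (adjusted p = 5.9e-04). SLC25A25 was 0.20 higher in OE than in KD (adjusted p = 6.3e-07), which became -0.04 (adjusted p = 0.24) after block removal. Its exons share 15.5% of their bases with other genes, among them NAIF1 (not called in KD) and the noncoding SLC25A25-AS1, which was lower in KD by -0.39 and not called in OE (-0.05).

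Of the remaining adenine nucleotide carriers, SLC25A24 was lower in KD by -0.08 and SLC25A17, a carrier of coenzyme A and other cofactors in peroxisomes, by -0.16. A pseudogene of SLC25A24 had a mean rlog of 8.31, so the small difference of SLC25A24 is uncertain. SLC25A42, the carrier of coenzyme A into mitochondria, was higher in OE by 0.13. In KD it was not called (0.08, adjusted p = 0.056), although it was under several alternatives, among them block removal (0.09, adjusted p = 0.029), centring (0.08, adjusted p = 0.041) and leaving out KD replicate 2 (0.11, adjusted p = 0.024) or parental replicate 1 (0.11, adjusted p = 0.016). Between OE and KD it was called only after block removal (0.09, adjusted p = 0.032). SLC25A41, with a mean rlog of 2.19, was called in no comparison of the main fit. Between OE and KD it was called after block removal (0.06, adjusted p = 0.048), against 0.02 before, and the rest is the subtracted block median.

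**Figure D3:**
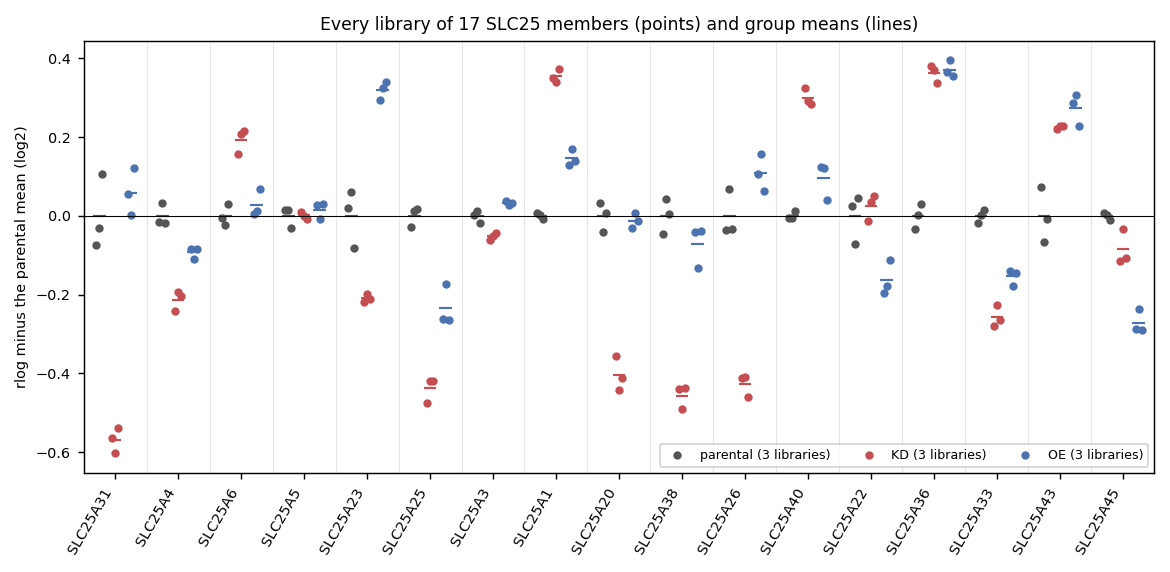
rlog of every library minus the parental mean (y axis, log2) for 17 carriers, with points for the 3 parental, 3 KD and 3 OE libraries and lines for group means. At SLC25A31, SLC25A20, SLC25A38 and SLC25A26 the libraries labelled KD lie below the parental and OE libraries. SLC25A36 and SLC25A43 are raised in both labelled groups, and SLC25A23 is lower in KD and higher in OE.

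Of 6 carriers of phosphate, carboxylates and carnitine, 4 were lower in KD and 1 higher (26.9% of all genes each), whereas in OE 2 were higher and 1 lower (16.9% and 18.0%). All 6 were called between OE and KD, 4 of them higher in OE, beside 47.3% of all genes and 68.3% of those with a mean rlog of 8 or more, although SLC25A10 (0.13) was not without KD replicate 1 (0.10, adjusted p = 0.073), and SLC25A11 (-0.04, adjusted p = 0.043) was not under most alternatives. These were block removal (-0.02, adjusted p = 0.26), quantile normalization (-0.03, adjusted p = 0.17), no variance trend (adjusted p = 0.055), a fit of 2 groups (adjusted p = 0.052), and leaving out KD replicate 2 or 3 or any OE replicate (adjusted p from 0.057 to 0.16). SLC25A3 supplies ATP synthase with phosphate and also carries copper. Its values were 14.48, 14.49 and 14.46 in parental, 14.41, 14.42 and 14.43 in KD and 14.51, 14.50 and 14.51 in OE libraries. The order was KD, parental, OE with no overlap, yet the steps were only -0.05 (adjusted p = 2.1e-04) and 0.03 (adjusted p = 0.022). Neither step held throughout: the KD difference was -0.00065 (adjusted p = 0.97) after block removal and -0.02 (adjusted p = 0.12) under quantile normalization. The OE difference was no longer called without OE replicate 1 (0.03, adjusted p = 0.071), without parental replicate 3 (0.02, adjusted p = 0.14), after block removal (0.03, adjusted p = 0.069) or without the variance trend (adjusted p = 0.17).

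SLC25A1 exports citrate, the source of cytosolic acetyl-CoA. It gave 10.93, 10.93 and 10.92 in parental, 11.28, 11.27 and 11.30 in KD and 11.06, 11.10 and 11.07 in OE libraries. Both labelled groups were above parental without overlap, by 0.35 (interval 0.31 to 0.40, adjusted p = 1.1e-15) and 0.15 (interval 0.10 to 0.19, adjusted p = 1.0e-06), and KD was above OE (-0.21 for OE against KD, adjusted p = 5.4e-10). The neighbours of SLC25A1 on chromosome 22 had medians of -0.05 in both comparisons.

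SLC25A20 brings acylcarnitines into the matrix for fatty acid oxidation. Its values were 9.53, 9.46 and 9.51 in parental, 9.15, 9.06 and 9.09 in KD and 9.47, 9.51 and 9.49 in OE libraries. The libraries labelled KD were well below, and the other 6 overlapped. The KD difference of -0.40 (adjusted p = 5.8e-13) went with that of its 141 neighbours within 10 Mb on chromosome 3, of which 95% were lower with a median of -0.31. After block removal -0.10 was left (adjusted p = 0.0068), and 0.09 (adjusted p = 0.015) of the OE against KD difference of 0.39.

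The dicarboxylate carrier SLC25A10 was lower in KD by -0.15 and SLC25A21, which carries oxoadipate and oxoglutarate, by -0.17. SLC25A10 shares 46.6% of its exonic bases with an overlapping protein-coding gene, ENSG00000262660, which had differences of -0.31 in KD and -0.34 in OE. SLC25A21 shares 37.2%, among others with PAX9 (0.13 in KD), so both carriers' values are uncertain. With parental replicate 1 left out, SLC25A21 was not called (-0.11, adjusted p = 0.074). SLC25A11 was lower in OE by -0.05 (adjusted p = 0.047), a call lost on leaving out any of the 6 libraries compared (adjusted p from 0.062 without OE replicate 3 to 0.13 without OE replicate 1) and on block removal (-0.03, adjusted p = 0.25). It was also lost with centring (-0.04, adjusted p = 0.087), quantile normalization (-0.03, adjusted p = 0.27), no variance trend (adjusted p = 0.063) and a fit of 2 groups (adjusted p = 0.053), and its KD difference of -0.0017 was not called.

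Carriers of amino acids and their derivatives formed the largest group, with values for 11 of 12. In KD 5 were lower and 2 higher, with a median of -0.053, beside 53.7% of all genes called. In OE 4 were lower and 2 higher, with a median of -0.048, beside 34.8%. SLC25A38 brings in glycine, the substrate of heme synthesis, and lies at chr3:39383370-39397351. Its values were 10.38, 10.47 and 10.43 in parental, 9.99, 9.94 and 9.99 in KD and 10.39, 10.30 and 10.39 in OE libraries. KD lay far below, while OE and parental overlapped. The KD difference was -0.46 (interval -0.51 to -0.40, adjusted p = 3.7e-15) and that of OE -0.07 (adjusted p = 0.052). The latter was called under several alternatives, among them block removal (-0.13, adjusted p = 5.4e-04), a fit to genes with a mean rlog of 5 or more (adjusted p = 0.033), and leaving out OE replicate 1 (-0.09, adjusted p = 0.037), OE replicate 3 (-0.09, adjusted p = 0.030) or parental replicate 1 (-0.09, adjusted p = 0.021). Neighbours within 10 Mb had a median KD difference of -0.27, and after block removal the KD difference was -0.21 (adjusted p = 1.7e-07) and that of OE against KD went from 0.39 to 0.08.

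SLC25A26 imports S-adenosylmethionine, the methyl donor, and lies at chr3:66133610-66388116 on the plus strand. It gave 9.47, 9.58 and 9.48 in parental, 9.10, 9.10 and 9.05 in KD and 9.62, 9.67 and 9.57 in OE libraries. KD was again far below both other groups, which overlapped. Its KD difference of -0.43 (adjusted p = 6.0e-13) was -0.46 after block removal, although the neighbours had a median of -0.23. The OE against KD difference was 0.53 (adjusted p = 3.2e-15). The small OE difference of 0.11 was not called without OE replicate 2 (0.08, adjusted p = 0.081), without parental replicate 1 (0.09, adjusted p = 0.061), without parental replicate 3 (0.09, adjusted p = 0.055) or after block removal (0.04, adjusted p = 0.35). SLC25A26 shares 12.2% of its exonic bases with other genes, among them LRIG1 on the other strand, which differed by -0.53 in KD and -0.02 in OE; reads of the pair cannot be told apart where they overlap, since the library kit does not mark strand.

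SLC25A39 and SLC25A40 are related proteins, of which SLC25A39 is known to import glutathione. SLC25A40 had values of 10.29, 10.29 and 10.31 in parental, 10.62, 10.59 and 10.58 in KD and 10.42, 10.42 and 10.34 in OE libraries. Parental, OE and KD followed each other upwards without overlap, with differences of 0.30 for KD (adjusted p = 7.6e-12) and 0.10 for OE (adjusted p = 0.0033). SLC25A39 instead was lower in KD, by -0.12 (adjusted p = 5.9e-06), and not called in OE (-0.05, adjusted p = 0.063), although it was without OE replicate 3 (-0.06, adjusted p = 0.026) or parental replicate 2 (-0.06, adjusted p = 0.047), and among genes with a mean rlog of 5 or more (adjusted p = 0.033). SLC25A40 minus SLC25A39 within a library was -1.47 ± 0.03 (SD, n = 3) in parental, -1.05 ± 0.03 in KD and -1.32 ± 0.07 in OE libraries, so the pair was closest in KD.

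SLC25A22 carries glutamate. It gave 11.25, 11.16 and 11.27 in parental, 11.21, 11.26 and 11.28 in KD and 11.03, 11.05 and 11.12 in OE libraries. OE was below both other groups, which overlapped, and its difference from parental was -0.16 (interval -0.22 to -0.11, adjusted p = 8.9e-06). The related SLC25A18 was weakly expressed and not called, although in KD (-0.10) it was with quantile normalization (-0.12, adjusted p = 0.022) and without KD replicate 2 (-0.13, adjusted p = 0.031) or parental replicate 2 (-0.15, adjusted p = 0.014). Between OE and KD (0.10) it was called with quantile normalization (0.12, adjusted p = 0.037) and without KD replicate 2 (0.13, adjusted p = 0.036). The aspartate and glutamate carriers of the malate-aspartate shuttle, SLC25A12 and SLC25A13, were called in no comparison, with SLC25A12 lower than SLC25A13 by about the same amount in every group (-1.19 ± 0.02, -1.20 ± 0.02 and -1.23 ± 0.01, SD, n = 3). After block removal SLC25A13 was called in OE (0.06, adjusted p = 0.038). SLC25A29, a carrier of basic amino acids, was higher in KD by 0.13 and lower in OE by -0.12, the latter -0.06 (adjusted p = 0.042) after block removal. The branched-chain amino acid carrier SLC25A44 was lower in both, by -0.16 and -0.14, and the ornithine carrier SLC25A15 by -0.05 and -0.06. Both SLC25A15 calls were near the threshold (adjusted p = 0.042 and 0.044). They were lost with libraries centred on their median (-0.05 each) and when single libraries were left out: KD replicates 2 and 3 and parental replicates 1 and 2 for KD (adjusted p from 0.060 to 0.18), and OE replicates 1 and 2 and parental replicates 1 and 2 for OE (adjusted p from 0.086 to 0.21). They were also lost without the variance trend (adjusted p = 0.077 and 0.087) and under quantile normalization (-0.04, adjusted p = 0.11, and -0.03, adjusted p = 0.34), and the OE call in a fit of 2 groups (adjusted p = 0.056). After block removal they were -0.09 and -0.07. A pseudogene of SLC25A15 had a mean rlog of 5.69, so these small differences are uncertain for that reason too.

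**Figure D4:**
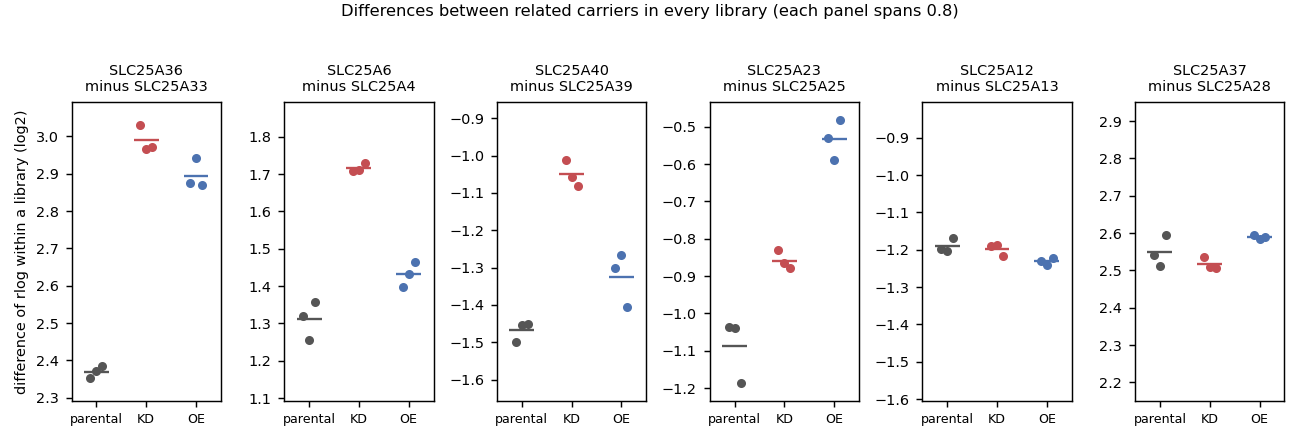
Difference of rlog between related carriers within each library (y axis, log2; each panel spans the same range), with points for libraries and lines for group means, n = 3 per group. SLC25A36 minus SLC25A33 moves from 2.37 in parental to 2.99 in KD and 2.90 in OE, whereas SLC25A12 minus SLC25A13 stays between -1.24 and -1.17 in all 9 libraries.

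Pyrimidine nucleotides, used for mitochondrial RNA and DNA, enter through SLC25A33 and SLC25A36, and this pair moved in opposite directions in both labelled groups. SLC25A36 had values of 12.14, 12.17 and 12.20 in parental, 12.55, 12.54 and 12.51 in KD and 12.53, 12.56 and 12.52 in OE libraries. Both labelled groups were above parental and overlapped each other, with differences of 0.36 (interval 0.33 to 0.40, adjusted p = 1.5e-17) and 0.37 (interval 0.33 to 0.41, adjusted p = 4.5e-17). SLC25A33 gave 9.78, 9.80 and 9.81 in parental, 9.52, 9.57 and 9.53 in KD and 9.66, 9.62 and 9.65 in OE libraries. Here all 3 groups were apart, with parental highest, and the differences were -0.26 (adjusted p = 1.6e-09) and -0.15 (adjusted p = 3.8e-05). The OE difference was -0.10 (adjusted p = 0.0040) after block removal. Neighbours within 10 Mb had medians of -0.0078 and -0.0023 at SLC25A36 and -0.04 and -0.05 at SLC25A33.

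The promoters of this pair are shown with that of SLC25A31, the carrier with the largest difference, to set the sequences beside the opposite movements. Of the 45 carriers, 39 had a promoter in the RefSeq table (GRCh38.p14). In the window from 250 to 11 bases before the start, both strands were searched for CACGTG (the E-box core), TGACGTCA (the cyclic AMP response element), GGGCGG (the GC box), the CCAAT box and the NRF1 consensus. Capitals mark CACGTG and TGACGTCA, which do not overlap each other in these windows. SLC25A36 is at chr3:140941586-140941825, SLC25A33 at chr1:9539215-9539454 and SLC25A31 at chr4:127730150-127730389, all on the plus strand and written 5′ to 3′.
SLC25A36: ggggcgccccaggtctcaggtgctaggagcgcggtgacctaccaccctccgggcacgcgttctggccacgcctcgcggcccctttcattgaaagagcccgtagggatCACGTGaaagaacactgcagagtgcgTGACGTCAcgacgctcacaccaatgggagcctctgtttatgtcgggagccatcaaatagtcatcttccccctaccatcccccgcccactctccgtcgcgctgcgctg
SLC25A33: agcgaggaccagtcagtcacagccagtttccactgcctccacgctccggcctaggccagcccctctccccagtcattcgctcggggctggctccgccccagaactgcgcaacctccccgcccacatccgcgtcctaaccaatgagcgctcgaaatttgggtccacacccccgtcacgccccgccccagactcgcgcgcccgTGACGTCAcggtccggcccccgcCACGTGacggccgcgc
SLC25A31: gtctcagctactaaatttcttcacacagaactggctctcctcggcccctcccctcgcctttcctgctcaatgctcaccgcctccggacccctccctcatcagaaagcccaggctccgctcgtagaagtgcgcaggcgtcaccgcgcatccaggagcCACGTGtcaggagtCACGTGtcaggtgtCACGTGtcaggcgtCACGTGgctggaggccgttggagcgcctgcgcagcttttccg

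SLC25A36 and SLC25A33 both hold 1 CACGTG and 1 TGACGTCA, and no other of the 39 carrier promoters holds both. Of all 35116 promoters, 40 (0.114%) do. The order differs: TGACGTCA starts 117 bases before the start in SLC25A36, downstream of its CACGTG at 143, whereas in SLC25A33 it starts at 49, upstream of CACGTG at 26. SLC25A31 holds 4 copies of CACGTG, starting at 94, 80, 66 and 52 bases before the start. CACGTG was in 6 of 39 carrier promoters (15.4%, against 6.01% of all promoters) and TGACGTCA in 3 (7.69% against 1.57%). Among the latter was SLC25A25, which was lower in both labelled groups. The carrier promoters had a median GC content of 64.6% against 57.9%, and such motifs contain C and G. GGGCGG was found in 27 carrier promoters (69.2% against 41.4%) and CCAAT in 18 (46.2% against 31.4%), and the NRF1 consensus in 0 (against 1.14%). These matches are a description of letters and not of bound factors, and whether they go with the differences was not tested.

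SLC25A16, which has been linked to coenzyme A, was lower in KD by -0.10. SLC25A52, a carrier of NAD with a mean rlog of 0.50, was called in no comparison of the main fit (-0.02 in KD and 0.02 between OE and KD). After block removal it was called in KD (-0.08, adjusted p = 1.2e-05) and between OE and KD (0.06, adjusted p = 5.7e-04). Most of these values is the subtracted block median.

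The folate carrier SLC25A32 was listed at 0.39, 0.43 and 0.38 in parental, 0.40, 0.38 and 0.42 in KD and 0.43, 0.38 and 0.40 in OE libraries. All groups overlapped and no comparison was called (-0.0017 for KD and 0.00094 for OE). This low value is uncertain as a measure of the carrier: 80.8% of its exonic bases are shared with DCAF13 on the other strand and with the protein-coding gene ENSG00000285982 on its own, which had values of 5.84, 5.86 and 5.80 in parental libraries and was not called either. DCAF13 was not analysed here. Block removal shifts all genes of a block alike, also those at the bottom of the table. With it SLC25A32 differed by 0.09 in KD (adjusted p = 1.5e-06) and by -0.11 between OE and KD (adjusted p = 1.4e-07), against -0.0017 and 0.0027 before. These calls are of the subtracted block medians and not of the carrier's own values.

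The iron carriers SLC25A37 and SLC25A28 (mitoferrins) were not called against parental, with differences from -0.05 to 0.04. After block removal SLC25A37 was called in OE (-0.07, adjusted p = 7.1e-04) and between OE and KD (-0.06, adjusted p = 0.0045). SLC25A28 was lower in OE than in KD by -0.08 (adjusted p = 0.013).

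The relatives of the uncoupling proteins with values, SLC25A14 and SLC25A27, were both lower in KD, by -0.09 (adjusted p = 0.012) and -0.24 (adjusted p = 6.8e-05). The SLC25A14 call was lost without KD replicate 3 (-0.08, adjusted p = 0.063) or parental replicate 1 (-0.08, adjusted p = 0.051). In OE neither was called (-0.02 and 0.11, adjusted p = 0.65 and 0.061), although SLC25A27 was after block removal (0.14, adjusted p = 0.019), with centring (0.12, adjusted p = 0.047), in a fit of 2 groups (adjusted p = 0.027) and without OE replicate 1 (0.14, adjusted p = 0.049). Of 5 carrier proteins with other names 4 had values. UCP2 was lower in KD by -0.15 and higher in OE than in KD by 0.13, although not without KD replicate 3 (0.10, adjusted p = 0.10) or OE replicate 2 (0.11, adjusted p = 0.072). UCP3 was lower in KD by -0.13, and not called without KD replicate 2 (-0.12, adjusted p = 0.057) or parental replicate 3 (-0.11, adjusted p = 0.071). MTCH2, an insertase of the outer membrane, was higher in OE by 0.08 and by 0.11 against KD, and MTCH1 was not called, except after block removal in KD (-0.07, adjusted p = 0.0023) and between OE and KD (0.09, adjusted p = 1.7e-04).

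Among 8 carriers with no settled substrate, SLC25A43 and SLC25A45 differed most in OE against parental. SLC25A43 had 8.45, 8.31 and 8.37 in parental, 8.60, 8.60 and 8.60 in KD and 8.66, 8.68 and 8.61 in OE libraries. Both labelled groups were above parental, by 0.23 (adjusted p = 4.0e-06) and 0.27 (interval 0.20 to 0.35, adjusted p = 3.6e-07), the latter 0.16 (adjusted p = 5.8e-04) after block removal. The gene ends 13.9 kb before SLC25A5 on chromosome X, which was not called in either comparison. SLC25A45 gave 9.72, 9.71 and 9.70 in parental, 9.60, 9.68 and 9.60 in KD and 9.42, 9.47 and 9.42 in OE libraries. OE was lowest without overlap (-0.27, interval -0.33 to -0.21, adjusted p = 5.2e-09). The KD difference of -0.08 (adjusted p = 0.016) was not called without KD replicate 1 (-0.07, adjusted p = 0.082) or KD replicate 3 (-0.07, adjusted p = 0.067). SLC25A46, an outer membrane protein of mitochondrial shape, was lower in KD by -0.14, and SLC25A53 by -0.08 with overlapping libraries. The SLC25A53 call (adjusted p = 0.049) was lost without KD replicate 2 (-0.09, adjusted p = 0.051), KD replicate 3 (-0.05, adjusted p = 0.25), parental replicate 1 (-0.07, adjusted p = 0.11) or parental replicate 2 (-0.05, adjusted p = 0.25), as well as with centring (-0.07, adjusted p = 0.067), quantile normalization (-0.07, adjusted p = 0.081) and no variance trend (adjusted p = 0.12). The difference was -0.15 after block removal, when OE was called too (-0.13, adjusted p = 0.0016). SLC25A34, SLC25A35, SLC25A47 and SLC25A48 were called in no comparison, and SLC25A35 shares 28.7% of its exonic bases with RANGRF, which was not analysed here.

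Position on the chromosome moved with several of these values. The 3 carriers with the lowest neighbourhoods on chromosome 3, SLC25A38, SLC25A20 and SLC25A26, lay among genes with median KD differences of -0.27, -0.31 and -0.23, and SLC25A25 on chromosome 9 among genes at -0.35. These were 4 of the 5 carriers lowest in KD. SLC25A36, on the same chromosome 3, had neighbours near 0. Across the 34 well expressed carriers with at least 20 neighbours, the member and neighbour differences had r = 0.557 in KD against parental, 0.222 in OE against parental and 0.601 in OE against KD; carriers are not independent replicates, those on chromosome 3 share neighbours, and no p is given. With block medians removed, 28 of the 29 KD calls kept their call and sign, as did 15 of 18 for OE and 22 of 25 between OE and KD. Block removal also gave calls for 4, 6 and 6 carriers not called in the main fit, some of which other alternatives called too. Among those for KD and for OE against KD were SLC25A32 and SLC25A52, at the bottom of the table, where the subtracted medians gave the calls. Whether whole chromosome segments differ in copy number between the lines was not tested.

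**Figure D5:**
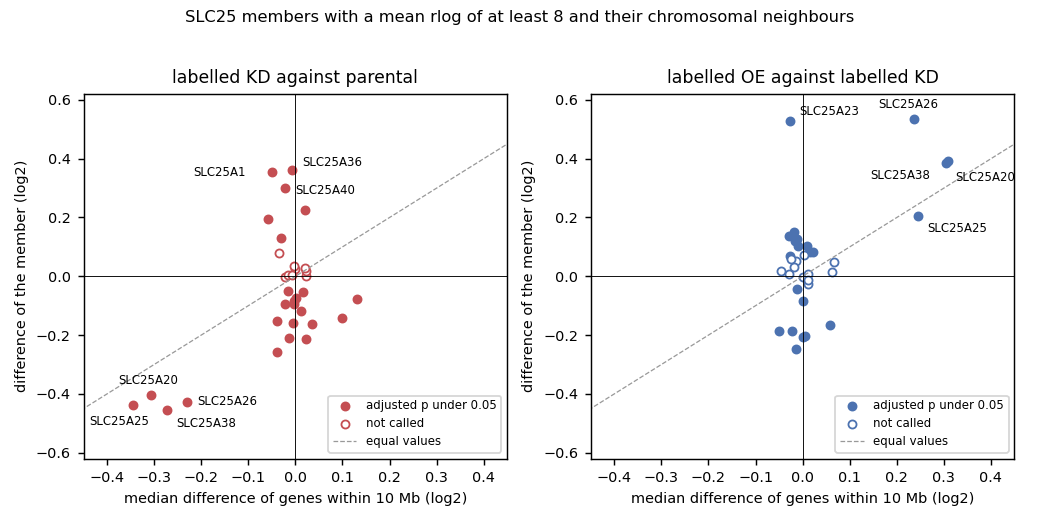
Difference of carriers with a mean rlog of at least 8 (y axis, log2) against the median difference of genes within 10 Mb (x axis, log2), for KD against parental (left) and OE against KD (right); filled points have an adjusted p under 0.05 and the dashed line marks equal values. SLC25A38, SLC25A20, SLC25A26 and SLC25A25 lie at neighbour medians of -0.23 to -0.35 in KD, and SLC25A1, SLC25A36 and SLC25A40 near 0.

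Genes around the carriers were counted in lists. Of 13 genes for the import of carriers into the inner membrane 12 had values. In KD 9 were lower and 2 higher, with a median of -0.18, and in OE 8 were lower and 1 higher, with a median of -0.10; the background shares are those given for all genes above. TOMM40, the pore of the outer membrane, was lowest in KD (-0.38, adjusted p = 8.5e-18), and TIMM10, a chaperone of the intermembrane space, followed (-0.23, and -0.14 in OE). TOMM40 had 12.26, 12.25 and 12.27 in parental, 11.85, 11.89 and 11.91 in KD and 12.07, 12.08 and 12.12 in OE libraries, without overlap, and its neighbours had a median of 0.02. TOMM20, a receptor for precursors, was higher by 0.20 in KD and 0.19 in OE, and TIMM8A was lower by -0.19 in both, which was -0.26 and -0.30 after block removal. Between OE and KD 4 were higher and 1 lower, led by TOMM40 (0.21) and TOMM22 (0.12).

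Of 17 other mitochondrial metabolite and ion transporters, all with values, 9 were lower and 2 higher in KD (26.9% of all genes each), and 4 were lower and 3 higher in OE (18.0% and 16.9%). SFXN3, a serine transporter, was higher by 0.34 in KD and 0.20 in OE, and the pyruvate carrier subunit MPC1 was lower by -0.24 in KD and not called in OE (-0.04). SFXN5 (-0.20 in KD, -0.23 in OE) and LETM1 (-0.22 in KD, -0.20 in OE) were lower in both. Between OE and KD 5 were higher and 3 lower, with VDAC3 at 0.22 and CPT2 at -0.21. Of 20 partner enzymes of the carriers 18 had values: 12 were lower and 5 higher in KD, 7 lower and 2 higher in OE, and 11 higher and 4 lower in OE than in KD (23.5% and 23.8% of all genes for the last, the other shares as just given). NFS1, which supplies sulfur for iron-sulfur clusters, was lower by -0.33 in KD; its neighbours on chromosome 20 had a median of -0.25, and its difference was 0.0029 (adjusted p = 0.93) after block removal. In OE it was -0.13, and -0.01 (adjusted p = 0.72) after block removal. Between OE and KD it was 0.20, and -0.02 (adjusted p = 0.62) after block removal. ALAS1, the enzyme that joins glycine to succinyl-CoA for heme, was lower by -0.31 in KD and -0.18 in OE. ALAS1 lies on chromosome 3 among neighbours with a median KD difference of -0.30, and its KD difference was -0.0068 (adjusted p = 0.78) after block removal.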

How the data were processed

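RNA from parental, KD and OE lines of cells labelled IMR-32 (3 libraries each, TruSeq RNA v2 kit, paired-end on a NovaSeq) was sequenced. The authors removed adapters with cutadapt, discarded reads of quality under 20 and under 36 bp, aligned with HISAT2 to GRCh38, counted with featureCounts (Subread), removed genes with a total count under 10, and give a coverage of 40000000 reads. The authors used DESeq2 per the labels, and the deposited values are taken as rlog (log2) from the table's name and numbers, with 1 column per library. Versions are not given in the sources used here, and 3 empty group columns were left out.

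Here, limma 3.58.1 in R 4.3.3 was fitted to all 22290 genes and 9 libraries with a variance trend and no covariates, with Benjamini-Hochberg adjustment over all genes and calls at an adjusted p under 0.05. The code was tested on simulated data. Gene positions and exon lengths came from GENCODE release 44 (GRCh38), and promoters from the RefSeq table for GRCh38.p14. Neighbours were genes within 10 Mb with a mean rlog of at least 8. For block removal, the median deviation of such genes from their means was subtracted per library in each 20-Mb block with at least 20 of them. Python 3.11.15, pandas 2.3.3, numpy 2.4.6 and matplotlib 3.10.9 were also used.

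Alternatives were block removal, centring, quantile normalization, no variance trend, a fit of 2 groups, a mean rlog of at least 5, a replicate block, a difference over 0.5, unadjusted p, and leaving out each library. Members and lists (other carrier proteins, carrier import, other transporters, partner enzymes, cell type markers) were chosen with earlier results of these data known. Given with every library are the 8, 8 and 5 called members with the largest difference in KD against parental, OE against parental and OE against KD, the 3 highest per length, the translocases, SLC25A3, SLC25A32 and TRAP1. From each other list the 2 called genes with the largest difference per comparison are named. Overlapping genes, markers given by value and the promoters shown were chosen after the values were seen. Some genes that the naming rule includes are not reported here by name or in figures, and remain in the counts.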

Additional observations from a re-analysis of the deposited data

How the results depend on the processing

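Over the genes of the naming rule and TRAP1, 1395 of 1440 alternatives kept the call and its direction, 23 lost the call, 14 gained it and 8 changed sign. All sign changes came with block removal, through the medians it subtracts: SLC25A5 (-0.069 in KD, -0.093 in OE), SLC25A25 (-0.042, OE against KD), SLC25A32 (0.093 in KD, -0.11 for OE against KD), NFS1 (0.0029 in KD, -0.016 for OE against KD) and ALAS1 (-0.17, OE against KD). Why those medians differed between groups was not tested.

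The count of called carriers was 29 for KD, 18 for OE and 25 for OE against KD. Leaving out 1 library gave 25 to 29, 15 to 19 and 23 to 26. It was 32, 21 and 28 with block removal, 28, 17 and 25 with centring, 27, 16 and 26 with quantile normalization, 27, 15 and 24 without the trend, 29, 20 and 25 with the filter, and 29, 17 and 24 with 2 groups. With a difference over 0.5 required as well it was 1, 0 and 3, and by unadjusted p 31, 21 and 27. With a replicate block it was 30, 19 and 25, with calls gained by SLC25A42 in KD (0.079, adjusted p = 0.047) and SLC25A38 in OE (-0.071, adjusted p = 0.045) and no member's call lost. Libraries with the same number correlated at -0.071 to 0.14 and others at -0.14 to 0.075. Between KD and OE, same numbers gave 0.12, 0.023 and 0.14, and others -0.14 to 0.026. With parental libraries, same numbers gave only -0.071 to 0.013. Whether the numbers pair libraries is thus not settled.

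The reads of each library are not known beyond the stated coverage of 40000000 reads and the normalised sums of 34928732 to 35211774 per library. The counts of low genes are thus known only roughly, and how far they limit these genes was not tested. rlog shrinks differences, RNA was isolated in triplicate but it is not known whether from separate cultures, or whether each line is 1 clone, copy number was not measured, and RNA says nothing of protein or transport.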
